A study of Mus musculus with 10 samples.

Results

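The butyrophilin-like genes measured in the proximal small intestine of *Zip14* (*Slc39a14*) knockout and wild-type mice were *Btnl1*, *Btnl2*, *Btnl4*, *Btnl6* and *Btnl9*. They were taken by gene symbol and make up 5 of the 35275 gene IDs in the count files, and all 5 had enough reads to be tested. RNA-seq was run on 10 libraries, 1 per mouse, from 5 WT mice and 5 mice labelled KO, and the labels give 8 to 10 weeks, taken here as the age, and no treatment. The study's methods describe whole-body *Zip14* knockout mice (WB-KO) and WT mice of the same strain, both bred from heterozygous parents, and the name WB-KO is used here. The series title speaks instead of a deletion in enterocytes, and which of these deletions the sequenced mice carried was not tested. The tissue was a whole frozen segment. Epithelium, lymphocytes, muscle, vessels and any attached fat contribute to each library, and fewer cells of a type cannot be told apart from less RNA per cell.

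Butyrophilin-like proteins are membrane proteins with immunoglobulin domains, related to the B7 ligands that steer T cells. In the mouse gut, Btnl1 and Btnl6 are made by villus enterocytes, and together they shape and maintain the intraepithelial lymphocytes whose gamma delta T cell receptor carries the variable segment Vγ7. Btnl4 is a close relative of Btnl6 in the same gene cluster, Btnl2 can dampen the activation of T cells, and Btnl9 is a more distant relative whose role in the intestine is poorly known.

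**Figure D1:**
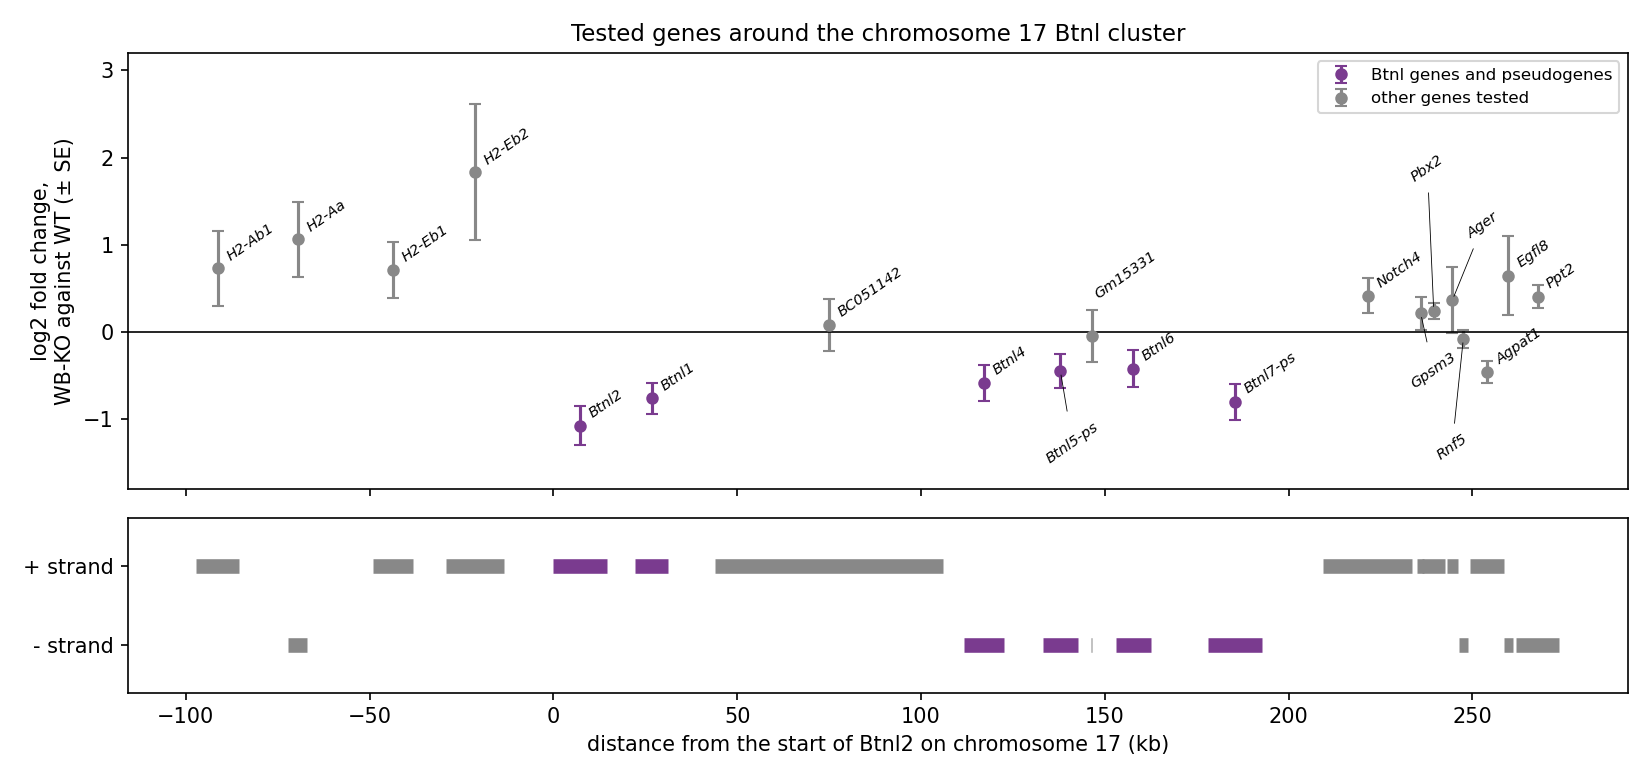
The upper panel shows the log2 fold change (WB-KO against WT, points, with the standard error of the edgeR model as bars) of each tested gene within 100 kb of the chromosome 17 cluster, and the lower panel shows each gene as a block on its strand, against the distance from the start of *Btnl2* in kb. All 6 Btnl genes and pseudogenes lie below 0, from -0.42 for *Btnl6* to -1.08 for *Btnl2*, while the class II genes at the left lie above 0 with wide errors.

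The 4 genes of the cluster lie on chromosome 17 next to the major histocompatibility complex (MHC) class II genes, in GENCODE M21 on the build GRCm38. *Btnl2* (ENSMUSG00000024340) runs from 34354822 to 34369495 and *Btnl1* (ENSMUSG00000062638) from 34377132 to 34386028, both on the plus strand. *Btnl4* (ENSMUSG00000058435) runs from 34466562 to 34477318 and *Btnl6* (ENSMUSG00000092618) from 34507804 to 34517352, both on the minus strand. *Btnl9* (ENSMUSG00000040283) lies apart from them on chromosome 11, from 49165585 to 49187159 (minus strand). No annotated gene overlaps any of the 5 on either strand.

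*Btnl4* and *Btnl6* are the most alike of the 5 in their coding sequence, which bears on how their reads were counted. Of 1617 aligned coding bases 89.7% are identical, against 57.1% to 62.4% for every other pair of the 5 genes. The first 150 coding bases of each follow, because they hold 8 differences, in capitals, and a run of 42 bases without one. They lie in 2 exons, at 34475853 to 34475937 and 34474290 to 34474354 for *Btnl4* and at 34517268 to 34517352 and 34515637 to 34515701 for *Btnl6* (minus strand of chromosome 17, GENCODE M21 transcripts Btnl4-201 and Btnl6-201).
Btnl4: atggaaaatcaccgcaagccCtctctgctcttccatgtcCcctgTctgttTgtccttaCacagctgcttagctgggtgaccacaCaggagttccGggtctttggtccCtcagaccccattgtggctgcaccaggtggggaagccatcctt
Btnl6: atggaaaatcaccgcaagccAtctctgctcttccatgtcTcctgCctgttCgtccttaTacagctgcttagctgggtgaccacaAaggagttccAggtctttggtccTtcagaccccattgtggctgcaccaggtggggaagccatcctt

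The longest run that the complete coding sequences share is 69 bases. Over the whole transcripts, 14.0% of the stretches of 50 bases in *Btnl4* and 6.58% of those in *Btnl6* also occur in another gene, mostly in the pseudogenes *Btnl5-ps*, which lies between them, and *Btnl7-ps*, which lies beyond *Btnl6*. With 100 bases these shares fall to 3.16% and 0.0605%. No stretch of 50 bases in *Btnl1* or *Btnl2* occurs elsewhere, and in *Btnl9* only 0.227% do. How reads that fit several genes were counted is not given in the sources used here, so the counts of *Btnl4*, and to a lesser degree of *Btnl6*, may be split with the pseudogenes.

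The 100 bases before the RefSeq starts of *Btnl1* (chr17:34377032-34377131) and *Btnl2* (chr17:34354722-34354821) follow because these genes fell in WB-KO mice and begin at the same base in both annotations. Capitals mark letters of the kind bound by HNF4 (CAAAGTC), a nuclear receptor of enterocytes, or by GATA factors (AGATAAG).
Btnl1: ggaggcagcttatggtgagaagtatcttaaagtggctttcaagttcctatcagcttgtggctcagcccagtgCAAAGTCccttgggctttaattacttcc
Btnl2: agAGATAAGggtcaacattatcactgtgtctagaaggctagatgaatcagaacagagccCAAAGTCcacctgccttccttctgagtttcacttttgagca

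The HNF4-type letters begin 28 bases before the start of *Btnl1* and 41 bases before that of *Btnl2*, and the GATA-type letters begin 98 bases before that of *Btnl2*. Both strands were searched in the window from 250 bases before to 50 bases after each start (RefSeq, GRCm38.p6), which was matched for all 5 genes. The CAAAGTC letters occur in 4.44% of 32851 such windows, the AGATAAG letters in 3.04%, and the letters TTTATNG of the CDX factors in 10.9%. None of the 3 was found in the windows of *Btnl4*, *Btnl6* or *Btnl9*, and TTTATNG was in none of the 5. The RefSeq models of *Btnl4* and *Btnl6* begin at the start codon itself, and that of *Btnl4* lies 1381 bases inside the gene as GENCODE draws it, so that their windows may not hold the promoter. The letters were chosen after the sequences had been seen, and a match is a description, not a binding site.

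The libraries held between 16729787 and 20819678 counts in WT mice and between 17118742 and 19414828 in WB-KO mice. The deleted gene *Slc39a14* was lower in WB-KO mice but still present. It had 191 to 357 CPM (counts scaled to library size with edgeR's TMM factors) in WT and 78.5 to 160.1 CPM in WB-KO libraries, with no overlap. The means were 260.4 ± 62.5 and 102 ± 32.9 CPM (SD, n = 5 each), and the log2 fold change was -1.35 (SE 0.22, edgeR's quasi-likelihood test, adjusted p = 0.00184). The WB-KO libraries also went against the label of proximal intestine. Of 9 tested genes of a list for the proximal small intestine 6 fell, such as the fatty acid binding protein *Fabp1*, and of 10 genes of the ileum list 6 rose, such as the ileal bile acid binding protein *Fabp6*, from 0.779 ± 0.607 to 5515 ± 2861 CPM. In the ileum list 1 gene fell, the sodium and proton exchanger *Slc9a3* (log2 fold change -3.22, edgeR adjusted p = 0.00427), which was named after its value had been seen. The summed level was 8624 to 15745 CPM in WT and 98.5 to 1369 CPM in WB-KO libraries for the proximal list, and 1529 to 2916 against 5944 to 14593 CPM for the ileum list. Smooth muscle genes rose as well, 10 of 10, with a summed level of 1220 to 2182 CPM in WT and 3276 to 9979 CPM in WB-KO libraries. These sums did not overlap between the groups, so that genotype, gut position and tissue layers cannot be told apart in the results that follow. Scaling to library size alone shifted the median log2 fold change of all genes by 0.124 and made 69.4% of the calls higher ones, against 53.5% with TMM, but each of the 5 Btnl genes kept its direction and its call.

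Of the 5 Btnl genes, 2 fell and 1 rose in WB-KO mice at an adjusted p under 0.05. Over all 15610 genes tested 29.9% passed this threshold, 13.9% lower and 16.0% higher, so that calls were common in this comparison. *Btnl2* fell most, *Btnl1* fell less, *Btnl4* and *Btnl6* had lower means that did not pass the test, and the scarce *Btnl9* rose. Values of single libraries are given as CPM in the order of replicates 1 to 5.

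**Figure D2:**
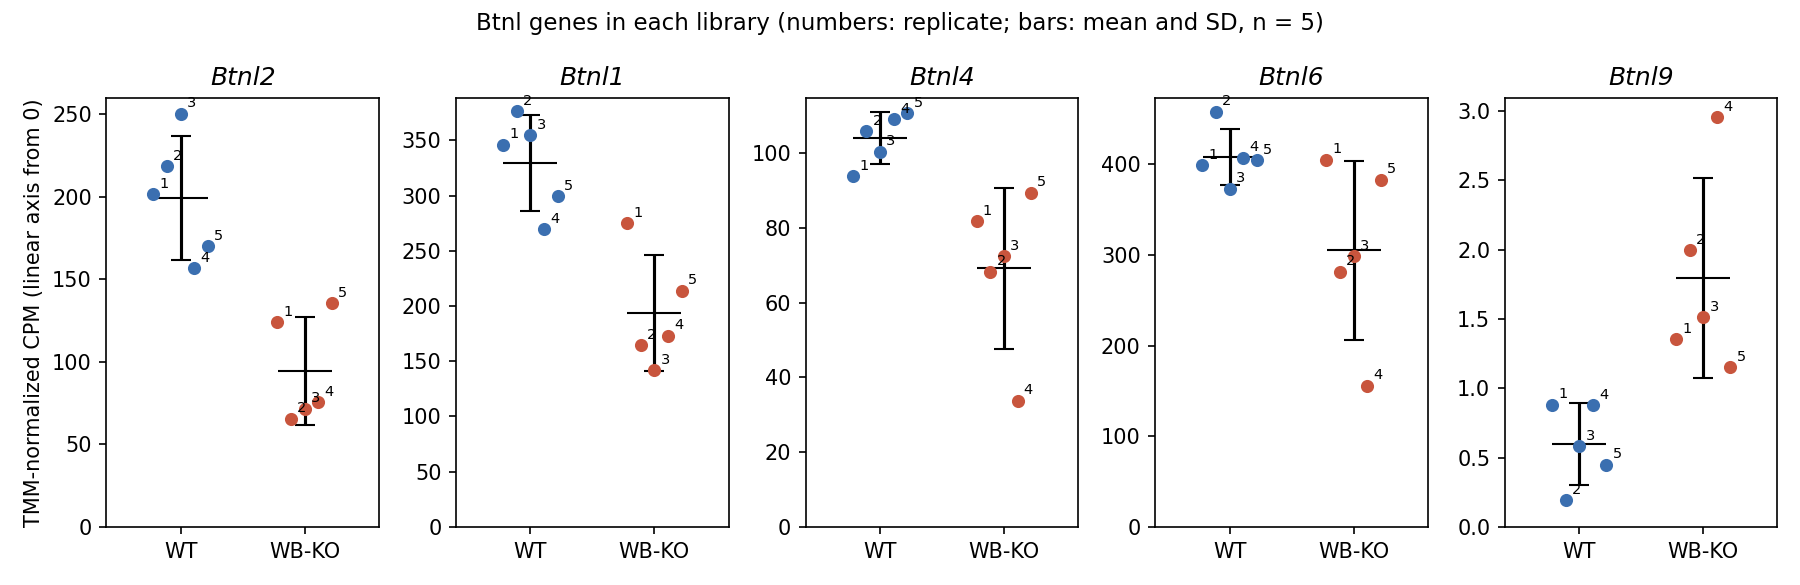
TMM-normalized CPM of the 5 Btnl genes in each library (linear axes from 0, each gene with its own range), with points numbered by replicate and bars giving the mean and SD of 5 libraries. WT and WB-KO libraries do not overlap for *Btnl2*, *Btnl4* and *Btnl9*, and WB-KO replicate 4 is the lowest for *Btnl4* and *Btnl6* and the highest for *Btnl9*.

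*Btnl1*, the partner of Btnl6 on the enterocyte surface, had 346, 377, 355, 270 and 299 CPM in the WT libraries. In the WB-KO libraries it had 275, 164, 142, 173 and 214 CPM. WB-KO replicate 1 was just above the lowest WT library, and the other 4 were below all WT libraries. The means were 329 ± 43.6 and 194 ± 52.4 CPM (SD, n = 5 each), and WB-KO mice held 58.8% of the WT level. The log2 fold change was -0.77 (SE 0.18, edgeR adjusted p = 0.00954).

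*Btnl2*, an inhibitor of T cell activation, had 201, 218, 250.3, 157 and 170.0 CPM in WT and 124, 65.6, 71.7, 75.7 and 136 CPM in WB-KO mice. No WB-KO library reached the lowest WT library, and replicates 1 and 5 were the highest of the WB-KO group. The mean fell from 199 ± 37.6 to 94.5 ± 32.7 CPM, which is 47.4% of the WT level. The log2 fold change was -1.08 (SE 0.22, edgeR adjusted p = 0.00584), and 5.06% of all tested genes had a lower one.

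*Btnl4*, the near copy of Btnl6, had 93.9, 106, 100.3, 109 and 111 CPM in the WT libraries and 81.9, 68.2, 72.3, 33.7 and 89.4 CPM in the WB-KO libraries. The groups did not overlap, but they lay close, and replicate 4 stood well below the other WB-KO libraries. The means were 104 ± 6.89 and 69.1 ± 21.4 CPM. The log2 fold change of -0.59 (95% interval from -1.05 to -0.13) did not pass the test after adjustment (edgeR adjusted p = 0.0522). The call was made without WB-KO replicate 1, 4 or 5 (adjusted p = 0.0436, 0.0125 and 0.0341), and the log2 fold change was -0.41 without replicate 4. DESeq2 also called it (adjusted p = 0.0296). WB-KO replicate 4 had the highest mean log2 CPM of the smooth muscle genes (9.50) and of the adipocyte genes (6.72), and their part was not tested.

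*Btnl6*, the chief partner of Btnl1 in maintaining Vγ7 lymphocytes, had 399, 458, 373, 407 and 405 CPM in WT and 405, 282, 299, 156 and 383 CPM in WB-KO mice. The groups overlapped, since replicates 1 and 5 of the WB-KO mice were within the WT range and the other 3 were below it. The means were 408 ± 30.8 and 305 ± 98.7 CPM, with a log2 fold change of -0.42 (95% interval from -0.89 to 0.05, edgeR adjusted p = 0.155). It was -0.25 without WB-KO replicate 4.

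*Btnl9* was at the edge of detection, with 17, 3, 10, 16 and 8 counts in the WT libraries and 24, 38, 28, 62 and 22 in the WB-KO libraries. This gave 0.882, 0.191, 0.583, 0.879 and 0.448 CPM in WT and 1.35, 1.99, 1.51, 2.95 and 1.15 CPM in WB-KO mice. Every WB-KO library was above every WT library, and WB-KO replicate 4 was the highest. The mean rose from 0.597 ± 0.295 to 1.79 ± 0.720 CPM, with a log2 fold change of 1.57 (SE 0.39, edgeR adjusted p = 0.0135). Only 3 of 5 WT libraries had at least 10 counts, against all WB-KO libraries, so the gene passed the filter on low counts through the WB-KO mice.

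Adding the mean level of other tissue genes to the model changed the calls in different ways. With the smooth muscle genes none of the 5 was called, and the log2 fold changes were -0.30 for *Btnl1*, -0.59 for *Btnl2*, 0.13 for *Btnl4*, 0.44 for *Btnl6* and 0.64 for *Btnl9*. With the pan-epithelial genes none was called either, but the log2 fold changes were -0.72, -1.30, -1.05, -0.81 and 1.46 in the same order. Both of these levels separated the groups, and with them 12 and 5 of all genes were called. With the endothelial genes, whose level overlapped between the groups, all 5 were called (edgeR adjusted p = 0.00755, 0.00246, 0.00859, 0.0251 and 0.00978).

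Non-overlap of the groups was found for 3 of the 5 genes. Over all genes tested 21.1% did not overlap, 10.8% with WB-KO below WT, as for *Btnl2* and *Btnl4*, and 10.2% with WB-KO above WT, as for *Btnl9*.

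Per kb of exon length the order of the levels was *Btnl6*, *Btnl1*, *Btnl2*, *Btnl4* and *Btnl9* in every WT library, at 233, 102, 77.1, 43.7 and 0.0986 CPM per kb on average. In WB-KO mice the averages were 174, 60.0, 36.5, 29.0 and 0.296 CPM per kb. There *Btnl2* and *Btnl4* were no longer apart, since *Btnl2* was the higher one in 3 of 5 libraries, while the other neighbours in this order kept it in all 5. *Btnl6* was above *Btnl1* by a median factor of 2.24 in WT and 3.16 in WB-KO libraries. Summed over the 4 genes of the cluster, the level went from 456 ± 32.3 to 299.8 ± 87.0 CPM per kb. Of this sum *Btnl6* made up 51.2% ± 3.34 in WT and 57.4% ± 5.69 in WB-KO mice, *Btnl1* 22.3% ± 1.74 and 20.6% ± 4.98, *Btnl2* 16.8% ± 2.57 and 12.3% ± 2.59, and *Btnl4* 9.62% ± 1.05 and 9.63% ± 1.48, with overlap of the groups in each.

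Whether the genes changed to unequal degrees was tested on the log2 ratio of each of the 10 pairs, with an exact permutation test (2-sided, lowest possible p = 0.00794) adjusted over the 10. The 4 ratios with *Btnl9* differed between the groups, by -1.97 to -2.60 (exact permutation test, adjusted p = 0.0198 each). All 4 rest on the 3 to 17 counts of *Btnl9* in the WT libraries, and on a gene that passed the filter through the WB-KO mice. None of the 6 ratios within the cluster passed with all libraries. The log2 ratio of *Btnl1* to *Btnl2* was 0.73 ± 0.13 in WT and 1.06 ± 0.26 in WB-KO mice (exact permutation test, adjusted p = 0.0661). The ratio of *Btnl2* to *Btnl6* went from -1.05 ± 0.31 to -1.68 ± 0.44 (exact permutation test, adjusted p = 0.0661), and that of *Btnl4* to *Btnl6* from -1.97 ± 0.12 to -2.14 ± 0.11 (exact permutation test, adjusted p = 0.102). The first of these passed without WB-KO replicate 5 (0.43, exact permutation test, adjusted p = 0.0317), and the second without WB-KO replicate 4 (-0.79, exact permutation test, adjusted p = 0.0317). A ratio that did not pass the test does not show that the genes of the cluster changed alike.

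**Figure D3:**
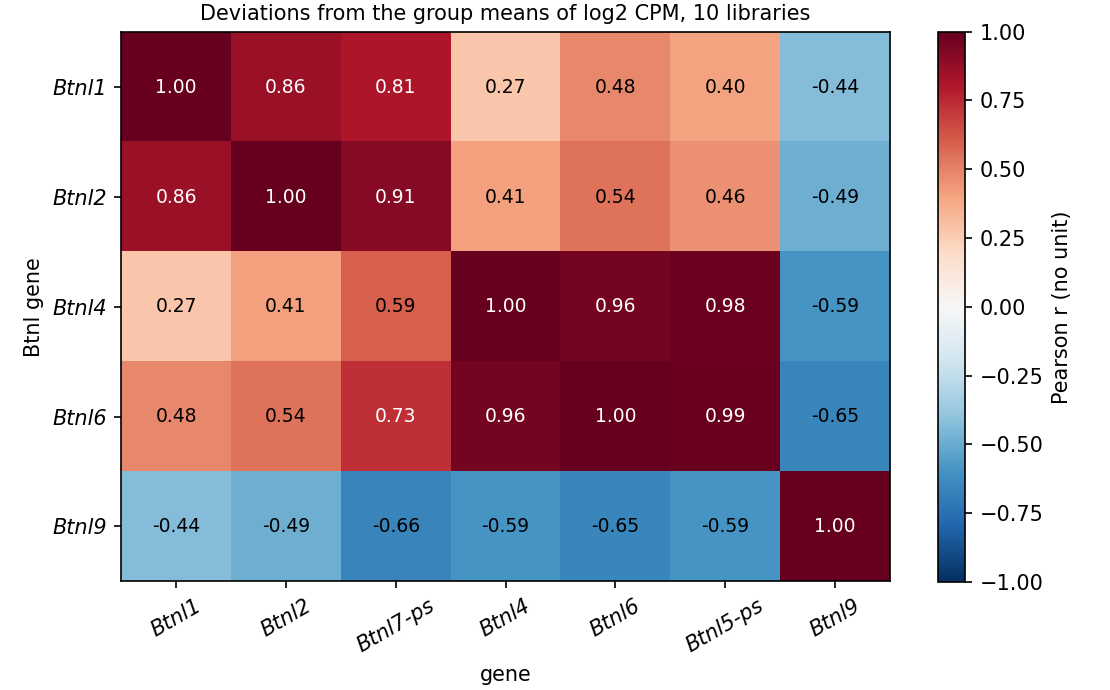
Pearson correlation (r, no unit, colour scale from -1 to 1) between each Btnl gene (rows) and the Btnl genes and pseudogenes (columns) over 10 libraries, after the mean log2 CPM of its group was subtracted from each library. *Btnl1*, *Btnl2* and *Btnl7-ps* vary together (0.81 to 0.91), as do *Btnl4*, *Btnl6* and *Btnl5-ps* (0.96 to 0.99). *Btnl9* goes against all of them (-0.44 to -0.66), but its values rest on 3 to 17 counts in the WT libraries.

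After the group mean was subtracted, *Btnl1* and *Btnl2* had r = 0.86 over the 10 libraries, and *Btnl4* and *Btnl6* had r = 0.96. The former stayed at 0.89 or above without the 2 libraries farthest from the mean for *Btnl1* or for *Btnl2*, and the latter fell to 0.78 without WB-KO replicates 4 and 5. Over the 5 WT libraries alone, where *Btnl4* varied little, *Btnl4* and *Btnl6* had r = 0.34, against 0.98 over the 5 WB-KO libraries, while *Btnl1* and *Btnl2* had 0.90 and 0.85. *Btnl1* had r = 0.27 with *Btnl4* and 0.48 with *Btnl6*, its protein partner. With *Btnl4* it had -0.57 over the WT libraries alone and 0.37 over the WB-KO libraries alone. With *Btnl6* it had 0.22 and 0.54. All of these r values are descriptions over libraries that differ in depth and tissue makeup, and the part of these differences was not tested. The part of the sequence that *Btnl4*, *Btnl6* and the pseudogenes share was not tested either.

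The genes most like each Btnl gene over the 10 libraries, by the same r, were as follows. For *Btnl1* they were *Mdh1* (0.99), a malate dehydrogenase, *Mogat2* (0.98), which re-forms fat in enterocytes, and *Ahrr* (0.98), the repressor of the aryl hydrocarbon receptor. For *Btnl2* they were *Rmdn3* (0.96), *2210407C18Rik* (0.96) and *Minpp1* (0.95), an inositol phosphate phosphatase. For *Btnl4* they were *Btnl5-ps* (0.98), *Dnmbp* (0.98) and *Polr3a* (0.98), and for *Btnl6* they were *Btnl5-ps* (0.99), *Cenpo* (0.98) and *Tmem170* (0.97). For *Btnl9* they were the fat cell genes *Retn* (0.95), which encodes resistin, *Scd1* (0.94), a fatty acid desaturase, and *Plin1* (0.94), the coat protein of lipid droplets. Without the 2 libraries farthest from the mean these values were between 0.85 and 0.97.

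The pseudogenes of the cluster were transcribed too. *Btnl5-ps*, between *Btnl4* and *Btnl6*, had 371 ± 21.9 CPM in WT and 271 ± 80.4 CPM in WB-KO mice (log2 fold change -0.45, SE 0.20, edgeR adjusted p = 0.107). *Btnl7-ps*, beyond *Btnl6*, fell from 154 ± 16.98 to 88.4 ± 30.2 CPM, and the groups did not overlap (log2 fold change -0.80, SE 0.21, edgeR adjusted p = 0.0150). Elsewhere in the family little was measured. Of 19 relatives sought, among them the milk fat butyrophilin *Btn1a1* and the skin genes *Skint1* to *Skint11*, 18 were in the counts and 3 were tested, the pseudogenes and *Ermap*, an erythroid membrane protein with means of 0.778 and 0.866 CPM (edgeR adjusted p = 0.640). The other 15 had group means of at most 0.374 CPM.

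Of 14 other tested genes within 100 kb of the cluster 2 were called, against 29.9% of all genes. The class II genes to its left had higher means in WB-KO mice that did not pass the test, for example *H2-Aa*, a class II alpha chain, with 256 ± 19.98 and 534 ± 485 CPM (log2 fold change 1.06, SE 0.43, edgeR adjusted p = 0.0824). On the right, *Agpat1*, an acyltransferase of phospholipid synthesis, fell (log2 fold change -0.46, SE 0.12, edgeR adjusted p = 0.0180). Its neighbour *Ppt2*, a lysosomal thioesterase, rose by 0.40 (SE 0.14, edgeR adjusted p = 0.0441). Of the 4 other tested genes within 100 kb of *Btnl9*, *Olfr56*, *Ifi47*, *Zfp62* and *Mgat1*, none was called, with log2 fold changes from 0.02 to 0.94.

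Transcripts of the T cell receptor gamma locus that encodes part of the gamma delta receptor were scarce. The 6 tested ones all had lower means in WB-KO mice (median log2 fold change -0.96, against 0.03 over all genes). The test called 1 of them, *Tcrg-V1*, a variable segment that fell from 1.39 ± 0.276 to 0.515 ± 0.407 CPM (log2 fold change -1.44, SE 0.45, edgeR adjusted p = 0.0341). DESeq2 called 3 of the 6, and edgeR called 3 when WB-KO replicate 1 was left out, 2 when it was WB-KO replicate 5, and 0 without WT replicate 1, 2, 3 or 5 or WB-KO replicate 2, 3 or 4. *Tcrg-V7*, the segment of the lymphocytes that depend on Btnl1 and Btnl6, had 2.54, 2.42, 1.87, 1.37 and 0.953 CPM in WT and 1.97, 0.420, 0.324, 0.191 and 0.472 CPM in WB-KO mice. The WB-KO library within the WT range was replicate 1, and the other 4 were below it. The difference did not pass the test (log2 fold change -1.45, SE 0.56, edgeR adjusted p = 0.0708). The constant segments *Tcrg-C1*, *Tcrg-C2* and *Tcrg-C4* had log2 fold changes of -0.60, -0.96 and -0.85 (edgeR adjusted p = 0.151, 0.0753 and 0.0914), and *Tcrg-V4* had -0.95 (edgeR adjusted p = 0.276).

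Other genes of intraepithelial lymphocytes gave few calls. Of 20 tested, 16 had lower means in WB-KO mice (median log2 fold change -0.60), and 1 fell and 1 rose. *Itgae*, the integrin that holds lymphocytes to the epithelium, went from 34.1 ± 11.6 to 17.6 ± 9.66 CPM (log2 fold change -0.95, edgeR adjusted p = 0.0755). The granzyme gene *Gzma* had 60.4 ± 33.0 and 43.4 ± 38.8 CPM (edgeR adjusted p = 0.573). The genes called were *Klrd1*, a receptor of killer cells that fell from 5.21 ± 1.56 to 2.01 ± 0.889 CPM, and *Cd69*, an activation marker that rose from 1.65 ± 0.349 to 2.94 ± 0.938 CPM, both named after their values had been seen. The count of genes that fell was 5 by DESeq2, 8 when WB-KO replicate 1 was left out and 2 when WB-KO replicate 5 was. The rise of *Cd69* was not called without WT replicate 1, 2, 3 or 4 or WB-KO replicate 2, 3, 4 or 5, or with no filter on low counts. Of 11 tested ligands that costimulate or restrain T cells, the functional kin of butyrophilins, 1 was called: *Pdcd1lg2*, a ligand of PD-1, which fell, and was likewise named after its value had been seen. That call was lost without WT replicate 1, 2 or 3 or WB-KO replicate 3 or 4. The summed level of the lymphocyte list was between 140 and 382 CPM in WT and between 80.5 and 318 CPM in WB-KO libraries, and its part in the results for the Btnl genes was not tested.

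Transcription factors of enterocytes changed in both directions, with 7 of 18 lower and 3 higher in WB-KO mice. *Hnf4g*, one of the HNF4 receptors, fell from 508 ± 57.6 to 214 ± 82.9 CPM (log2 fold change -1.25, SE 0.23, edgeR adjusted p = 0.00318), while its relative *Hnf4a* had 861 ± 71.5 and 1039 ± 244 CPM and was not called (log2 fold change 0.27, SE 0.17, edgeR adjusted p = 0.234). *Gata4*, a factor of the proximal gut, was at 160 to 217 CPM in WT and at 59.4, 13.8, 5.24, 0.572 and 1.47 CPM in WB-KO mice. Others that fell included *Gata6* (log2 fold change -1.27), *Creb3l3* (-1.99), *Smad4* (-0.63) and *Nr1i2* (-0.43). Those that rose were the intestinal factors *Cdx1* (0.92) and *Cdx2* (0.78) and the epithelial factor *Elf3* (0.55). Those not called included *Klf4*, *Klf5*, *Maf*, *Prdm1* and *Isx*, with log2 fold changes from -0.10 to 0.44.

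**Figure D4:**
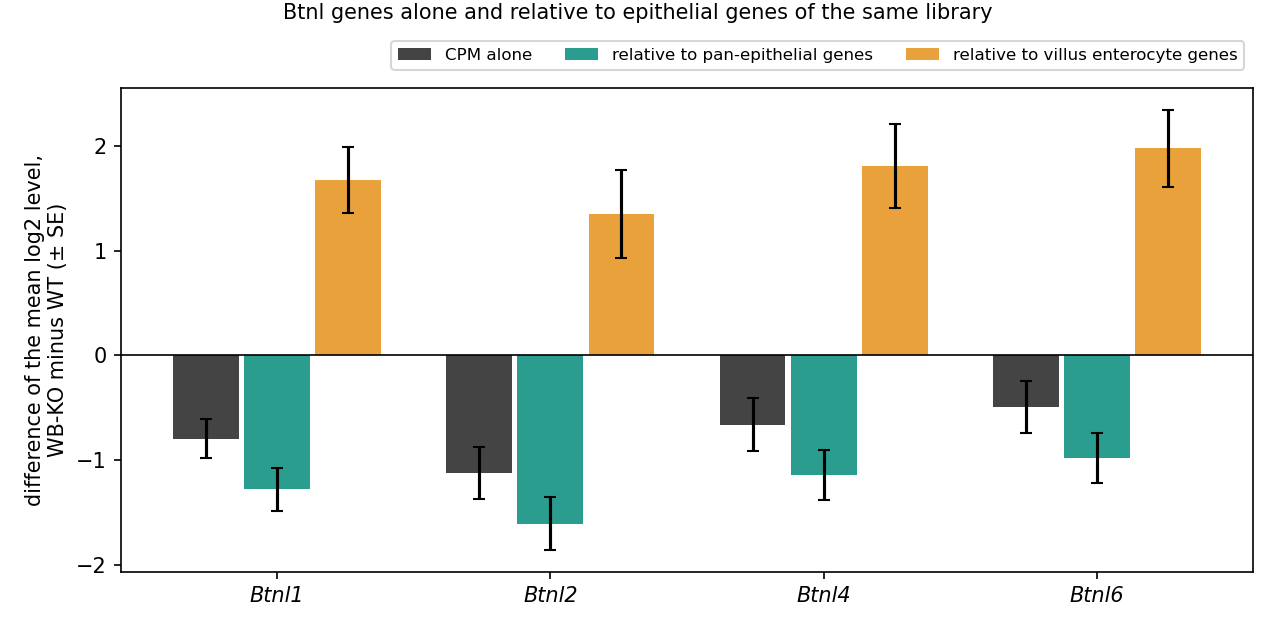
Bars give the difference between the WB-KO and WT means of the log2 level (± SE from the spread of 5 libraries per group) of the 4 cluster genes, as CPM alone, relative to the mean log2 CPM of pan-epithelial genes, and relative to that of villus enterocyte genes of the same library. The bars relative to pan-epithelial genes are the lowest (-0.98 to -1.61), and those relative to villus enterocyte genes point upwards (1.35 to 1.98).

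Against other genes of the epithelium, the direction depended on which genes were taken. Most genes made by all intestinal epithelial cells rose, 9 of 15 tested, for example the keratin *Krt8* (log2 fold change 0.77, SE 0.15, edgeR adjusted p = 0.00383). The log2 fold change was negative for 3 of the 15, among them *Vil1* (-0.49, SE 0.21, edgeR adjusted p = 0.105), and none of these was called. The summed level of the 15 genes was 14631 to 17216 CPM in WT and 19838 to 25670 CPM in WB-KO libraries. Genes of mature villus enterocytes fell, 14 of 20 tested (median log2 fold change -1.74), with sums of 48304 to 66753 CPM and 19742 to 41447 CPM. An example is the apolipoprotein *Apoa4* (log2 fold change -4.97, SE 0.90, edgeR adjusted p = 0.00300), while the aminopeptidase *Anpep* had -0.11 (SE 0.21, edgeR adjusted p = 0.711). *Lct*, *Apoa4* and *Fabp1* are also in the list for the proximal small intestine, so these lists are not independent. The part of the shared genes in the values relative to the villus list was not tested. Relative to the pan-epithelial genes of the same library, the differences between WB-KO and WT mice were -1.28 for *Btnl1*, -1.61 for *Btnl2*, -1.143 for *Btnl4* and -0.98 for *Btnl6* on the log2 scale. Relative to the villus enterocyte genes, the same genes were higher by 1.68, 1.35, 1.81 and 1.98. In all 8 of these the WT and WB-KO libraries were apart. The exact permutation test gave p = 0.00794 each, the smallest it can give, and adjusted p = 0.0146 over 35 such relations. This scale was chosen after the data had been seen. Relative to the genes of intraepithelial lymphocytes, *Btnl2* differed by -0.56 (exact permutation test, adjusted p = 0.0427), and *Btnl1*, *Btnl4* and *Btnl6* by -0.23, -0.09 and 0.07 (exact permutation test, adjusted p = 0.341, 0.809 and 0.809). Within the WB-KO mice, replicate 1 had the most *Btnl1* and the highest mean log2 CPM of the villus enterocyte genes (9.69), but replicate 5 had the second most *Btnl1* and the lowest (7.85).

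**Figure D5:**
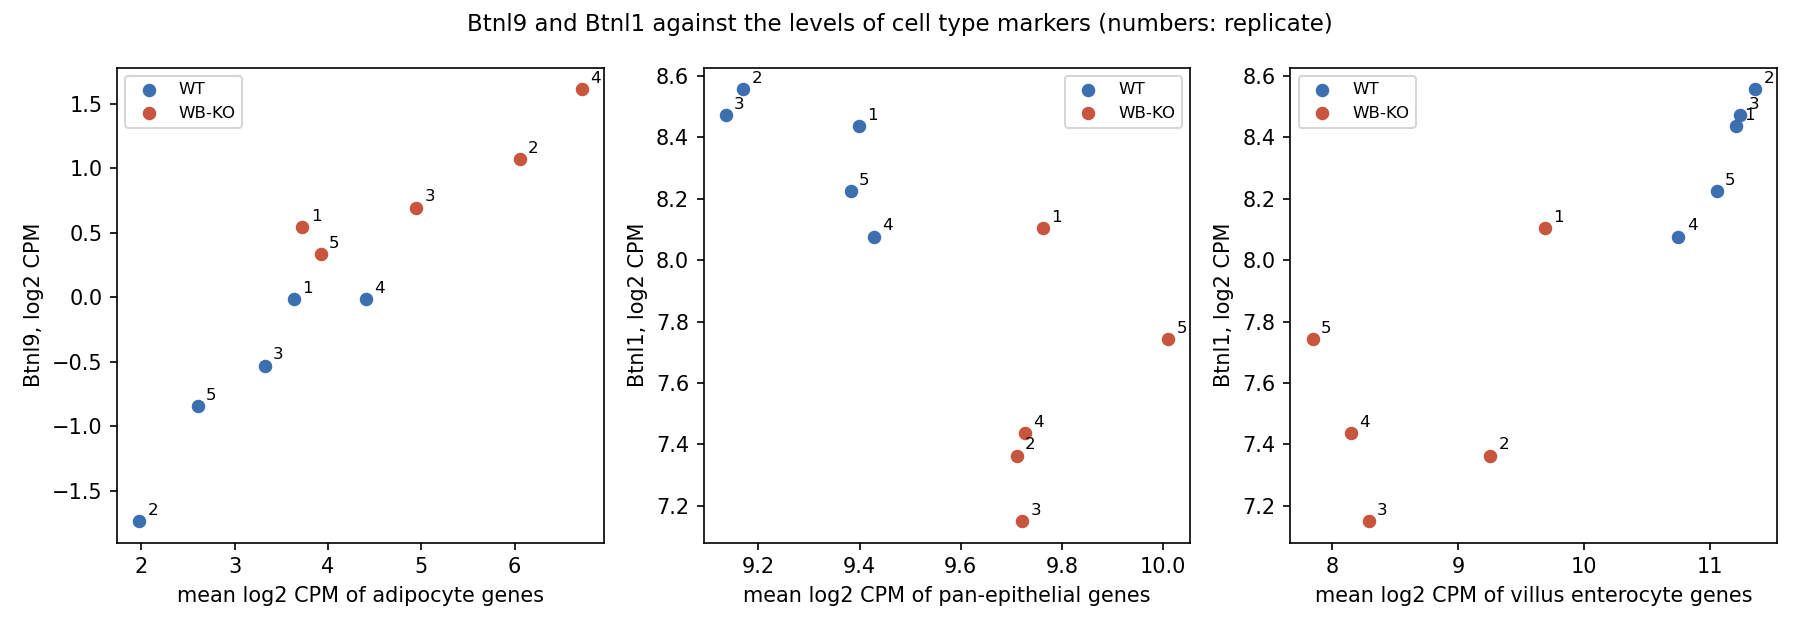
Log2 CPM of *Btnl9* against the mean log2 CPM of adipocyte genes (left), and of *Btnl1* against that of pan-epithelial genes (middle) and villus enterocyte genes (right), with 1 point per library numbered by replicate. *Btnl9* is lowest where the adipocyte genes are lowest (WT replicate 2) and highest where they are highest (WB-KO replicate 4), and the middle and right panels separate WT from WB-KO libraries.

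Most markers of fat were higher in WB-KO mice as well. Of 12 adipocyte genes 10 rose in WB-KO mice (median log2 fold change 2.49). Among them was the fatty acid binding protein *Fabp4*, from 29.2 ± 16.6 to 165 ± 159 CPM (log2 fold change 2.49, SE 0.69, edgeR adjusted p = 0.0202). The log2 fold change was negative for 1 of the 12, which was not called. The count of 10 fell to 4 without WT replicate 2, to 5 without WT replicate 3 or 5 or WB-KO replicate 4, and to 6 without WT replicate 1, without WB-KO replicate 2 or with robust dispersion. The summed level of these genes was between 278 and 484 CPM in WT and between 336 and 1865 CPM in WB-KO libraries, and none of them was at 0 in the mean of a group. Their mean log2 CPM was 1.98 in WT replicate 2 and 6.72 in WB-KO replicate 4, the libraries with the least and the most *Btnl9*. It was higher in WT replicate 4 (4.41) than in WB-KO replicates 1 (3.73) and 5 (3.92), which had more *Btnl9*, so that the order was not the same in all libraries. The mean log2 CPM of the smooth muscle genes was likewise lowest in WT replicate 2 (6.47) and highest in WB-KO replicate 4 (9.50). For these genes every WB-KO library was above every WT library. The part of fat or muscle in the result for *Btnl9* was not tested. Relative to the adipocyte genes of the same library, *Btnl9* differed between the groups by -0.40 (SE 0.41, exact permutation test, p = 0.357, adjusted p = 0.391), and relative to the smooth muscle genes by -0.05 (SE 0.35, exact permutation test, p = 0.897, adjusted p = 0.897).

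Genes of vessels moved in both directions. Of 16 tested endothelial genes 3 rose and 5 fell (median log2 fold change -0.13), with 3 falling without WT replicate 1 or 2 or WB-KO replicate 3 and with library size only, and the general marker *Pecam1* had 41.5 ± 1.05 and 44.7 ± 9.60 CPM (edgeR adjusted p = 0.577). Those that fell were *Plvap*, the most abundant of the list (90.4 ± 12.3 against 54.4 ± 9.03 CPM, log2 fold change -0.73, SE 0.13, edgeR adjusted p = 0.00307), *Kdr* (-0.71) and *Flt1* (-0.85), receptors of vascular growth factors, *Emcn* (-0.52) and *Robo4* (-0.46). The 3 that rose were *Cldn5* (0.89), *Ecscr* (0.83) and *Gpihbp1* (1.44), and these and the latter pair that fell were named after their values had been seen. Relative to the endothelial genes of the same library, *Btnl9* was higher in WB-KO mice by 1.501 (SE 0.35, exact permutation test, p = 0.00794, adjusted p = 0.0146). This too rests on 3 to 17 counts per WT library of a gene that passed the filter through the WB-KO mice.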

How the data were processed

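RNA was extracted from frozen segments of proximal intestine and 1 SMARTer mRNA-Seq library was made of each mouse. What the authors deposited are whole-number counts per Ensembl gene ID, without normalization. The submitters' processing notes name FastQC 0.11.9, Trimmomatic, HISAT2 2.0.4, SAMtools 1.3.1, DESeq2 1.14.1 and the builds GRCm38 and mm10, and the read counter, annotation and strand setting were not given in the sources used here. GENCODE M21 gave a symbol for 34490 of 35275 IDs. Groups came from the sample titles, which match the genotype labels. Whether the mice were littermates or shared cages is not labelled, and p-values weigh a difference between the groups against the spread among mice within them.

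With R 4.3.3, WB-KO and WT were compared by edgeR 4.0.16 (quasi-likelihood test, TMM, filterByExpr with minimum count 10 and minimum total 15, Benjamini-Hochberg adjustment over all 15610 genes, threshold 0.05). Standard errors and 95% intervals are those of this model, and intervals are not adjusted. Log2 CPM had a prior count of 2 (alternative 0.5). Exact permutation tests ran over all 252 splits. DESeq2 1.42.0 was an alternative, and both tools were tested on simulated data with 200 changed genes. Members, the 17 gene lists and the rule for named genes were chosen with earlier results of these data known. Named were the Btnl genes, *Slc39a14*, tested genes of the family, gamma delta receptor and transcription factor lists, at most the 4 most abundant genes of each other list, neighbours within 100 kb, and the 3 genes most correlated with each Btnl gene. The values of 3 genes of the transcription factor list are not reported here. Genes outside this rule are said to have been named after their values were seen. The lists not described in the report gave 2 higher and 0 lower calls of 12 for crypt and dividing cells, 3 and 1 of 6 for colon, 0 and 0 of 8 for B cells, 0 and 0 of 11 for MHC class II, and 3 and 3 of 12 for goblet, Paneth, tuft and endocrine cells.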

Additional observations from a re-analysis of the deposited data

How the results depend on the processing

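The tests across all genes were repeated by DESeq2, with RLE scaling or none beyond library size, with other filters on low counts (none, or a mean of 10), robust dispersion, the replicate number as a block, 3 covariates, and without each mouse. *Btnl1*, *Btnl2* and *Btnl9* kept their calls under each of these except the smooth muscle score (log2 fold changes of -0.30, -0.59 and 0.64) and the pan-epithelial score (-0.72, -1.30 and 1.46) as a covariate. Both scores separate the groups, and with them 12 genes (7 higher, 5 lower) and 5 genes (3 higher, 2 lower) of all were called, and 2 genes of the lists with either, against 86. With the smooth muscle score *Btnl4* (0.13), *Btnl6* (0.44) and *Btnl5-ps* (0.32) turned to the opposite sign, with no call, and the cause was not tested. *Btnl4* was called by DESeq2 (-0.60), with the endothelium score (-0.67) and relative to the pan-epithelial genes (-1.14), and *Btnl6* by the latter ones (-0.51 and -0.98). The last scale was chosen after the data were seen, its reference genes separate the groups, and relative to the villus enterocyte genes both differences were positive (1.81 and 1.98).

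Without each mouse in turn, the log2 fold change was -0.93 to -0.68 for *Btnl1*, -1.24 to -0.98 for *Btnl2*, -0.70 to -0.41 for *Btnl4*, -0.55 to -0.25 for *Btnl6* and 1.31 to 1.74 for *Btnl9*. The genes called were 3207 to 5507, of which 1634 to 2944 were higher and 1573 to 2563 lower, the list genes called 70 to 111, and the member pairs called 4 to 5. The lowest count of higher calls was without WT replicate 2. Among the lists with 0 calls, 6 B cell genes were higher without WT replicate 5, 3 when WB-KO replicate 1 was left out and 2 when WB-KO replicate 5 was. For MHC class II it was 5 without WB-KO replicate 1 and 3 without WT replicate 5 or WB-KO replicate 4 or 5, and DESeq2 called 2 in each list. Crypt genes called higher went from 2 to 0 without WT replicate 1 or 3 and to 1 without WT replicate 2, and those called lower from 0 to 1 without WB-KO replicate 1. Colon genes called lower went from 1 to 2 without WB-KO replicate 2, and to 0 without WT replicate 1, 2 or 3 or WB-KO replicate 3, 4 or 5. The difference in the *Btnl1* to *Btnl4* ratio went from -0.34 to 0.0027, the latter without WB-KO replicate 3, and it was not called in any setting. With the replicate number as a block, 3848 genes were called, with -0.79 for *Btnl1*, -1.12 for *Btnl2*, -0.65 for *Btnl4*, -0.49 for *Btnl6* and 1.58 for *Btnl9*, and no call of these changed. The block lost both calls of the lymphocyte list, *Klrd1* and *Cd69*. It left 0 of the 4 member pairs, since an exact sign-flip permutation test of 5 pairs cannot go below p = 0.0625. Libraries of the same number had r = 0.0157, 0.0025, -0.0913, 0.177 and -0.167 for deviations from the group means over all tested genes. Whether equal numbers mark a litter, cage or day is not labelled. These values cannot decide it, since the libraries also differ in tissue makeup. Depth limits *Btnl9*, the gamma delta receptor genes and the family members below the filter, whose differences may be undetectable here.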
